A study of Homo sapiens with 6 samples.

Results

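The DNA replication machinery was followed here as 54 genes given by name, and every gene of the list was found among the 28278 genes of the count files. The genes fell into 12 sub-complexes, from the origin recognition complex and the MCM2-7 helicase to the polymerases, the clamp and its loaders, nucleotide supply and chromatin assembly. HT29 cells, a human colorectal adenocarcinoma line with epithelial morphology, received an siRNA against ALDOA (siALDOA, 3 libraries) or a scrambled siRNA (siControl, 3 libraries). RNA was taken from both groups after 48 h, and ALDOA encodes the glycolytic enzyme aldolase A. All values come from 1 cell line and 1 time point, and in bulk RNA a different share of cells in S phase cannot be told apart from a different amount of RNA per cell.

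DNA replication starts in G1 phase, when ORC, CDC6 and CDT1 load the MCM2-7 helicase as an inactive ring onto origins. At the start of S phase the kinase CDC7 with its partner DBF4 and further factors turn the ring into an active helicase with CDC45 and the GINS complex. Polymerase alpha-primase then lays down primers, polymerases delta and epsilon extend them on the sliding clamp PCNA, and ribonucleotide reductase, thymidylate synthase and thymidine kinase supply the building blocks. Many of these genes are transcribed at the border of G1 and S phase by E2F factors, and such genes are widely used as signs of proliferation.

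The promoters give the sequence side of this shared regulation. RefSeq promoter sequences (GRCh38.p14, 250 bases before to 50 bases after the start) were matched for 47 of the 54 genes. The E2F words searched on both strands were TTTCGCGC, TTTGGCGC, TTTCCCGC, TTTGGCGG and TTTCGCGG, which can overlap one another, and at least 1 of them was present in 24 of the 47 promoters (51.1%). The same words were present in 3.81% of all 27305 promoters of that length and in 5.99% of the 11344 promoters of tested genes. The windows below, each 30 bases read 5′ to 3′ on the strand of the gene, show the word in capitals for genes of different roles, and a match is only a description of the letters.
MCM2 (helicase, chr3:127598402-127598431, plus strand): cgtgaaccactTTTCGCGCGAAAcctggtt
MCM6 (helicase, chr2:135876577-135876606, minus strand): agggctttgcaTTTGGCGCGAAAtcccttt
CDC6 (helicase loading, chr17:40287840-40287869, plus strand): cgaggccgggcTTTGGCGGgaggtgggaac
CDT1 (helicase loading, chr16:88803743-88803772, plus strand): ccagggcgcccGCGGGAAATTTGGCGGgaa
CDC45 (helicase activation, chr22:19479884-19479913, plus strand): aggagccgtgaTTTGGCGGgagtcttgacc
GINS1 (helicase activation, chr20:25407667-25407696, plus strand): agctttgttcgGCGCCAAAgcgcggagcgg
POLA2 (polymerase alpha, chr11:65261898-65261927, plus strand): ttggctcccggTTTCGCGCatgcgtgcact
PCNA (sliding clamp, chr20:5126663-5126692, minus strand): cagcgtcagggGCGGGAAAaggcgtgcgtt
LIG1 (DNA ligase, chr19:48170440-48170469, minus strand): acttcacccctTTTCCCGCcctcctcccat
UHRF1 (methylation maintenance, chr19:4909472-4909501, plus strand): aaatgccgagtTTTCGCGGGAAAaaaatca
In MCM2, MCM6, CDT1 and UHRF1 the capitals run over 2 overlapping or adjoining words on opposite strands, and in GINS1 and PCNA the word lies on the strand opposite to the gene. RefSeq and GENCODE starts can differ, and the RefSeq starts of GINS1, POLA2, LIG1 and RRM2 lie inside the GENCODE spans given further on.

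CCAAT, the word bound by NF-Y, was present in 26 of the 47 promoters (55.3%) against 35.7% of all promoters and 36.4% of those of tested genes. TTTGAA, the core of the cell cycle homology region, was present in 2 of 47 (4.26%) against 15.4% of all promoters and 10.1% of those of tested genes. The RRM2 promoter held none of the E2F words but had CCAAT at 3 places, and the one nearest to the start is shown with the word in capitals.
RRM2 (ribonucleotide reductase, chr2:10122661-10122690, plus strand): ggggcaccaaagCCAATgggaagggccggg

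ALDOA itself had 283, 305 and 280 CPM (counts scaled by library size) in the siALDOA libraries and 592, 637 and 668 CPM in the siControl libraries. It fell by 1.13 on the log2 scale (SE 0.060), and the groups did not overlap. The libraries held 27277538 to 33237914 counts. Ribosomal RNA genes took 13.1%, 7.71% and 8.11% of them in siALDOA and 17.4%, 15.3% and 8.15% in siControl. None of the 15 pairs of libraries agreed within sampling noise (chi-square per degree of freedom 5.05 to 108). This measure over tested genes used library totals only and kept the ribosomal RNA genes, so differences in their share enter it. On it the libraries did not group by treatment. The siControl replicate 3 library was nearer to siALDOA replicates 2 and 3 (23.6 and 22.9) than to siControl replicates 1 and 2 (90.8 and 58.0). The siALDOA replicate 1 library was nearer to siControl replicate 2 (26.2) than to siALDOA replicates 2 and 3 (39.3 and 34.2). The measure was not taken without the ribosomal RNA genes. Of 12 colon epithelium markers, 11 were tested, with a summed level of 9484 to 9817 CPM in siALDOA and 10050 to 10611 CPM in siControl, and LGALS4 was listed at 0 throughout. Fibroblast markers summed to 3.16 to 4.46 CPM, blood markers to at most 0.417 CPM and endothelial markers to at most 0.299 CPM over all 6 libraries.

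Most of the 54 replication genes had a small log2 fold change above 0, while the groups overlapped on the genes' summed level. All 54 passed the filter on low counts in edgeR. Their median log2 fold change (siALDOA minus siControl) was 0.12, with a range from -0.24 to 0.34 and a median SE of 0.085, and the median of all 15307 tested genes was 0.0016. A log2 fold change above 0 was found for 46 of the 54 (85.2%), against 50.3% of all tested genes and 49.4% of the 10803 tested genes within the range of expression of the replication genes. With library totals only, all tested genes shifted upwards (median 0.075, 66.1% above 0), and 53 of the 54 were above 0 and 46 above that median. Few of these differences passed the test for the single gene. At a Benjamini-Hochberg adjusted p under 0.05 in edgeR's quasi-likelihood test, 3 of 54 rose (5.56%), namely GINS1, RRM2 and TK1, where the background was 4.36% of tested genes called higher. None fell, by edgeR, limma-voom or DESeq2, where the background was 5.29% called lower and 9.66% called in either direction. The share of genes that rose was close to that of the whole table. Changes of the size seen here are often missed with 3 libraries a group, so a gene that did not pass is not shown to be unchanged.

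At an unadjusted p under 0.05 the counts were 16 of 54 higher (29.6%, background 11.3%) and 1 lower (1.85%, background 12.3%), the latter being ORC4. In 13 genes every siALDOA library lay above every siControl library (24.1%, background 13.1%), and only ORC4 showed the opposite order (1.85%, background 14.6%), where 27.7% of tested genes were separate in either direction. The 3 calls depended on single libraries. When siALDOA replicate 3, siControl replicate 1 or siControl replicate 3 was left out, none of the 54 was called higher, against 3.14%, 3.9% and 2.35% of all tested genes in the same fits. Leaving out siALDOA replicate 2 left 1 call (GINS1), against 3.03% of all tested genes, and leaving out siALDOA replicate 1 gave 5 (CDT1, POLD1, LIG1, RRM2 and TK1), against 4.12%. Without siControl replicate 2 the calls were 3 (PCNA, DSCC1 and TK1), against 2.32%, and GINS1 and RRM2 were not among them. Scaled to library totals only, 7 of the 54 were called higher, with ORC1, GMNN, DSCC1 and RRM1 added, and the split of all tested genes moved from 668 higher and 810 lower to 896 higher and 279 lower.

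**Figure D1:**
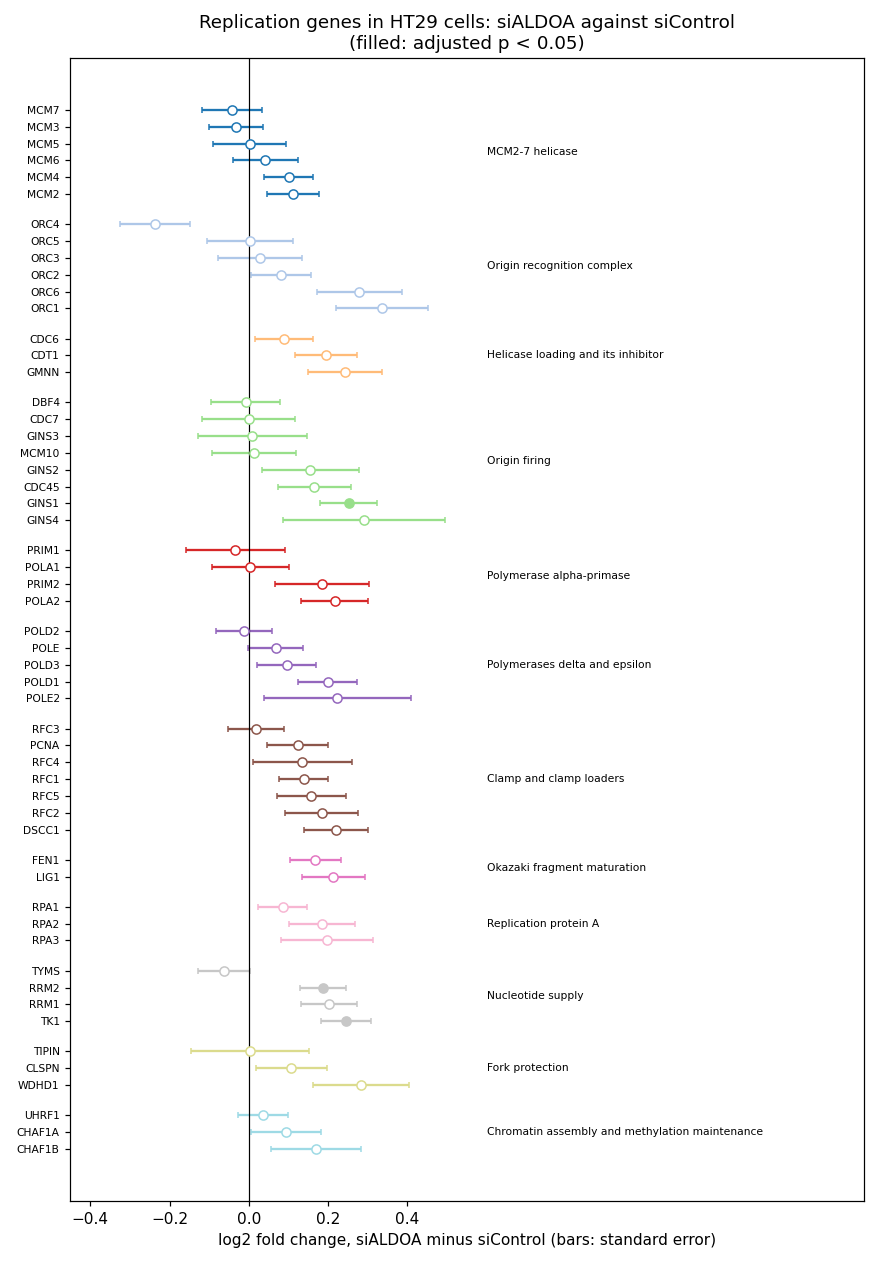
Log2 fold change of each of the 54 genes (x axis, siALDOA minus siControl, bars are the standard error of the edgeR fit) in order of sub-complex. Filled points are the genes with an adjusted p under 0.05, which are GINS1, RRM2 and TK1, and most open points lie to the right of 0, with ORC4 at -0.24 as the lowest and ORC1 at 0.34 as the highest.

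The height of the replication genes varied between libraries of the same group. Summed over the 54 genes, the level was 2588, 2784 and 2671 CPM in the siALDOA libraries and 2429, 2669 and 2461 CPM in the siControl libraries. The siControl replicate 2 library therefore lay inside the siALDOA range, and the groups overlapped on this sum. It was the highest siControl library in 41 of the 54 genes (75.9%) and lay above the lowest siALDOA library in 38 (70.4%), compared with 17 genes for siControl replicate 1 and 22 genes for siControl replicate 3. As a mean deviation from each gene's average over the 6 libraries, the 54 genes stood at 0.028, 0.091 and 0.049 log2 CPM in siALDOA and at -0.10, 0.029 and -0.093 log2 CPM in siControl. Without siControl replicate 2 the median log2 fold change of the 54 genes was 0.15, and without siControl replicate 3 it was 0.094. The share of ribosomal RNA was highest in siControl replicates 1 and 2. With the ribosomal RNA genes left out of the table the median of the 54 genes was 0.12. In that fit 3 of the 54 were called higher, against 4.49% of all tested genes. The median of all tested genes was 0.0017 in that fit and 0.0016 with these genes kept. Whether the share of ribosomal RNA bears on the levels was not tested.

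**Figure D2:**
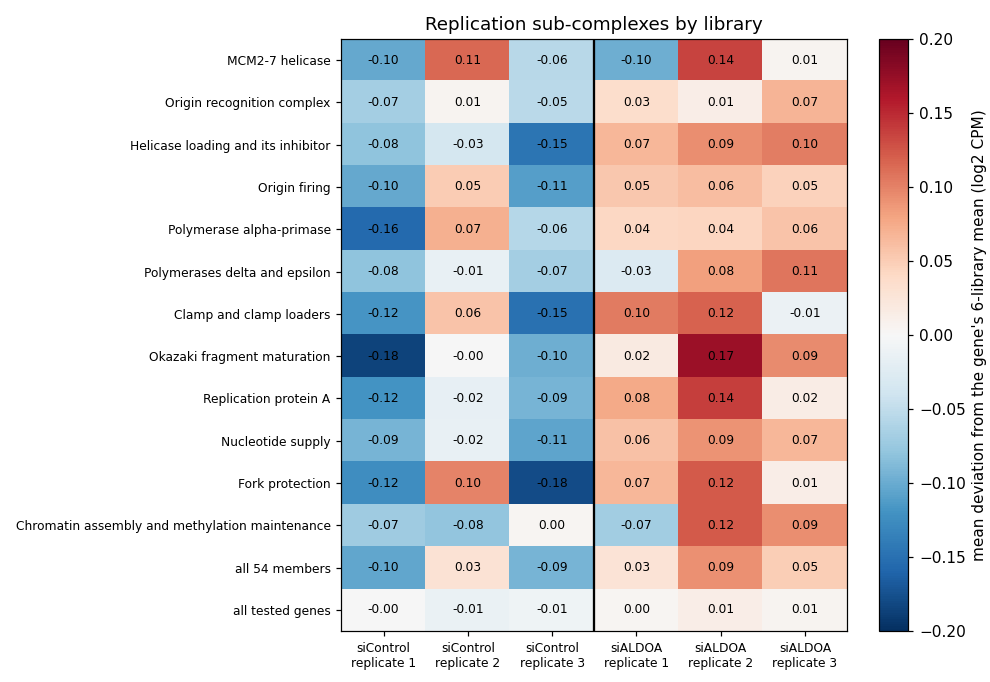
Mean deviation in log2 CPM from each gene's average over the 6 libraries (colour and printed value), for 12 sub-complexes, all 54 genes and all tested genes, with 1 column per library. Columns of siControl replicates 1 and 3 are mostly below 0, and the siControl replicate 2 column is above 0 for the helicase at 0.11 and for fork protection at 0.10.

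The origin recognition complex, which marks the sites where replication can start, held both ends of the range. ORC1, its largest subunit (chr1:52372829-52404423, minus strand, GENCODE 44 on hg38), had 12.6, 12.3 and 15.3 CPM in siALDOA and 10.8, 10.7 and 10.3 CPM in siControl. The groups did not overlap, and the log2 fold change was 0.34 (SE 0.12, adjusted p = 0.0750). ORC1 passed with edgeR's likelihood ratio test (adjusted p = 0.0459) and with library totals only (adjusted p = 0.0422). ORC4, an ATPase-fold subunit of the same complex (chr2:147930396-148021604, minus strand), had 66.3, 90.9 and 91.1 CPM in siALDOA and 95.0, 97.3 and 100.2 CPM in siControl. All siALDOA libraries were below all siControl libraries, with siALDOA replicate 1 far below the rest. The log2 fold change was -0.24 (SE 0.088, adjusted p = 0.102) and without siALDOA replicate 1 it was -0.10. ORC4 passed with no filter on low counts (adjusted p = 0.00804) and with replicate number as a block (adjusted p = 0.00977). ORC6 was at 0.28 with groups that did not overlap (adjusted p = 0.113), and ORC2, ORC3 and ORC5 lay between 0.0028 and 0.082. The median of the 6 subunits was 0.055, and none passed the test.

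Of the helicase loading factors, CDC6 and CDT1 bring the MCM ring to ORC, and geminin (GMNN) binds CDT1 and blocks loading outside G1 phase. GMNN (chr6:24774931-24786099, plus strand) had 31.8, 27.3 and 28.1 CPM in siALDOA and 25.9, 26.1 and 21.6 CPM in siControl. Its groups did not overlap, with a log2 fold change of 0.24 (SE 0.093, adjusted p = 0.111). With 1 library left out GMNN ran from 0.16 (without siControl replicate 3) to 0.29 (without siControl replicate 2). It passed in 2 of the 16 alternative analyses, with library totals only (adjusted p = 0.0409) and with replicate number as a block (adjusted p = 0.0488). CDT1 was at 0.19 (adjusted p = 0.132), also without overlap, and CDC6 was at 0.090 (adjusted p = 0.507). CDT1 passed in 1 of the 16 alternative analyses, without siALDOA replicate 1 (adjusted p = 0.0377), and with any other library left out its adjusted p ran from 0.211 to 0.359. The loading factors and their inhibitor had log2 fold changes of the same sign, and none of the 3 passed the test.

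With all libraries the MCM2-7 helicase showed the smallest median of the 12 sub-complexes, 0.022, with a range from -0.043 for MCM7 to 0.11 for MCM2. This rank did not hold without siALDOA replicate 1 or without siControl replicate 2, where the origin recognition complex had the smaller median. MCM2 (chr3:127598410-127622436, plus strand), the member with the smallest p, had 137, 151 and 140 CPM in siALDOA and 124, 145 and 128 CPM in siControl. The groups overlapped through siControl replicate 2 (log2 fold change 0.11, SE 0.066, adjusted p = 0.323). With 1 library left out MCM2 ran from 0.066 (without siControl replicate 1) to 0.18 (without siControl replicate 2). MCM3, MCM4, MCM5 and MCM6 had log2 fold changes of -0.032, 0.10, 0.0024 and 0.041, and all 6 genes overlapped between the groups. MCM5, MCM7, MCM6 and MCM3 had the other sign in 7, 3, 2 and 2 of the 16 alternative analyses. With library totals only, where the median of all tested genes was 0.075, MCM3 was at 0.041 and MCM7 at 0.035, below that median. The 6 subunits form 1 ring in equal numbers, but their transcripts were not equally abundant per length. In siControl the levels ran from 11.99 CPM per kb of transcript for MCM5 through 17.4 for MCM6, 33.7 for MCM3, 35.8 for MCM4 and 38.4 for MCM2 to 85.0 CPM per kb for MCM7, a ratio of 7.09 between the ends.

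Among the 8 origin firing genes only GINS1 passed the test. GINS1 (chr20:25391008-25452700, plus strand) encodes a subunit of the GINS complex, which joins CDC45 and MCM2-7 in the active helicase. It had 43.9, 41.5 and 43.99 CPM in siALDOA and 36.7, 37.6 and 34.4 CPM in siControl. The groups did not overlap, and the means were 43.1 ± 1.44 and 36.2 ± 1.67 CPM (SD, n = 3). GINS1 rose by 0.25 on the log2 scale (SE 0.071, adjusted p = 0.0291), a difference of 19.1%, and it passed in 11 of the 16 alternative analyses. Its adjusted p was 0.165 without siControl replicate 3 and 0.0925 without siALDOA replicate 3, and it also missed the threshold without siALDOA replicate 1, siControl replicate 1 or siControl replicate 2.

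CDC45 was at 0.17 with groups that did not overlap (adjusted p = 0.289). The other GINS subunits had log2 fold changes of 0.16 for GINS2, 0.0087 for GINS3 and 0.29 for GINS4, where GINS4 had only 3.40 to 6.65 CPM and an SE of 0.20. With 1 library left out GINS2 ran from 0.046 (without siALDOA replicate 1) to 0.29 (without siALDOA replicate 3), and GINS4 from 0.10 (without siControl replicate 1) to 0.50 (without siControl replicate 2). The kinase CDC7 and its activator DBF4 were at -0.00055 and -0.0083, and MCM10, which supports helicase activation, was at 0.013. GINS1 also had the highest level per length of the firing genes in siControl, 10.9 CPM per kb, and GINS4 the lowest, 1.25 CPM per kb.

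Polymerase alpha-primase makes the RNA-DNA primers. POLA2, its regulatory subunit (chr11:65261913-65305959, plus strand), had 28.5, 31.6 and 29.5 CPM in siALDOA and 24.2, 27.8 and 25.1 CPM in siControl. The groups were separate, and the log2 fold change was 0.22 (SE 0.084, adjusted p = 0.116). The catalytic subunit POLA1 was at 0.0035, and the primase subunits PRIM1 and PRIM2 were at -0.034 and 0.18. Polymerases delta and epsilon copy the lagging and the leading strand. POLD1, the catalytic subunit of delta (chr19:50384204-50418018, plus strand), had 69.3, 86.5 and 82.2 CPM in siALDOA and 69.8, 71.0 and 66.6 CPM in siControl. The siALDOA replicate 1 library lay among the siControl libraries (log2 fold change 0.20, SE 0.074, adjusted p = 0.0991). POLD1 passed when it was left out (log2 fold change 0.29, adjusted p = 0.00401), but was at 0.13 (adjusted p = 0.377) without siALDOA replicate 2 and at 0.17 (adjusted p = 0.310) without siControl replicate 3. POLD2, POLD3, POLE and POLE2 ranged from -0.012 to 0.22, and no polymerase gene passed in this test with all 6 libraries. With replicate number as a block POLD1 passed (adjusted p = 0.0395).

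All 7 genes of the clamp and its loaders had log2 fold changes above 0, from 0.019 for RFC3 to 0.22 for DSCC1, with a median of 0.14, and none passed the test. PCNA, the sliding clamp and a common proliferation marker, had 135, 132 and 131 CPM in siALDOA and 114, 142 and 110 CPM in siControl. The siControl replicate 2 library was the highest of all 6, and the groups overlapped (log2 fold change 0.12, adjusted p = 0.355). The value depended on the siControl library left out, with a log2 fold change of 0.24 (adjusted p = 0.0392) without replicate 2, 0.078 (adjusted p = 0.651) without replicate 1 and 0.051 (adjusted p = 0.802) without replicate 3. DSCC1, a subunit of the alternative loader that serves sister chromatid cohesion (chr8:119833976-119855894, minus strand), had 40.1, 41.2 and 37.4 CPM in siALDOA and 32.2, 37.9 and 32.0 CPM in siControl. Its overlap was again with siControl replicate 2 (log2 fold change 0.22, SE 0.081, adjusted p = 0.0965). It passed without that library (adjusted p = 0.0447), and with any other library left out the adjusted p ran from 0.0971 to 0.338. RFC1, RFC2 and RFC5 of the canonical loader had groups that did not overlap, with log2 fold changes of 0.14, 0.18 and 0.16.

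LIG1 and FEN1 finish Okazaki fragments by sealing the nick and by removing the flap. LIG1 (chr19:48115445-48170603, minus strand) had 43.3, 52.7 and 50.8 CPM in siALDOA and 39.3, 44.2 and 43.2 CPM in siControl. The lowest siALDOA library lay within the siControl range (log2 fold change 0.21, SE 0.079, adjusted p = 0.0988). LIG1 passed without that library, siALDOA replicate 1 (adjusted p = 0.0122), and with any other library left out the adjusted p ran from 0.142 to 0.338. FEN1 was at 0.17 (adjusted p = 0.109). Replication protein A covers single-stranded DNA, and its subunits RPA1, RPA2 and RPA3 were at 0.085, 0.19 and 0.20. RPA2 (chr1:27891524-27914746, minus strand) had 29.5, 34.5 and 32.4 CPM in siALDOA and 27.9, 30.02 and 27.0 CPM in siControl, with overlap between siALDOA replicate 1 and siControl replicate 2 (SE 0.083, adjusted p = 0.179).

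Nucleotide supply held both of the other genes that passed the test. TK1, the thymidine kinase of the salvage route (chr17:78174091-78187233, minus strand), had 100.3, 112 and 111 CPM in siALDOA and 86.5, 94.4 and 91.9 CPM in siControl. The groups did not overlap, with means of 108 ± 6.47 and 90.9 ± 4.04 CPM (SD, n = 3). TK1 rose by 0.25 on the log2 scale (SE 0.063, adjusted p = 0.0162), a difference of 18.5%. It passed in 12 of the 16 alternative analyses and missed the threshold without siALDOA replicate 2 (adjusted p = 0.0896), siALDOA replicate 3 (0.0703), siControl replicate 1 (0.0741) or siControl replicate 3 (0.0630).

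RRM2, the small subunit of ribonucleotide reductase, which limits the enzyme in S phase (chr2:10120698-10211725, plus strand), had 127, 123 and 131 CPM in siALDOA and 108, 114 and 112 CPM in siControl. The groups were separate, with means of 127 ± 3.83 and 112 ± 3.10 CPM (SD, n = 3). RRM2 rose by 0.19 on the log2 scale (SE 0.057, adjusted p = 0.0447), a difference of 13.8%, and passed in 10 of the 16 alternative analyses. It missed the threshold with no filter on low counts (adjusted p = 0.0562) and without any of the libraries other than siALDOA replicate 1, up to an adjusted p of 0.157 without siALDOA replicate 3.

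RRM1, the large subunit, had a log2 fold change close to that of its partner, 0.20, but did not pass (SE 0.071, adjusted p = 0.0827). It passed in 2 of the 16 alternative analyses, with library totals only (adjusted p = 0.0383) and with replicate number as a block (adjusted p = 0.0256). Thymidylate synthase (TYMS), the de novo source of thymidine nucleotides, was at -0.063 (adjusted p = 0.619), and with library totals only it was at 0.012, below the median of all tested genes of 0.075. The exons of TYMS share 60% of their bases with exons of ENOSF1 on the other strand. The strand setting of the counts is not given in the sources used here, so that reads of these genes may not be told apart.

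WDHD1, which ties polymerase alpha to the helicase at the fork (chr14:54938949-55027105, minus strand), had 13.4, 13.8 and 11.6 CPM in siALDOA and 9.97, 12.2 and 9.77 CPM in siControl. The groups overlapped through siControl replicate 2 (log2 fold change 0.28, SE 0.12, adjusted p = 0.157). The checkpoint adaptors CLSPN and TIPIN were at 0.11 and 0.0036. Of the chromatin genes, CHAF1B, a subunit of the histone chaperone CAF-1 (chr21:36385392-36419015, plus strand), had 11.0, 12.7 and 12.7 CPM in siALDOA and 10.7, 10.4 and 11.3 CPM in siControl, with overlap of the groups (log2 fold change 0.17, SE 0.11, adjusted p = 0.399). CHAF1A was at 0.094, and UHRF1, which guides DNA methylation to newly made strands, was at 0.037.

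**Figure D3:**
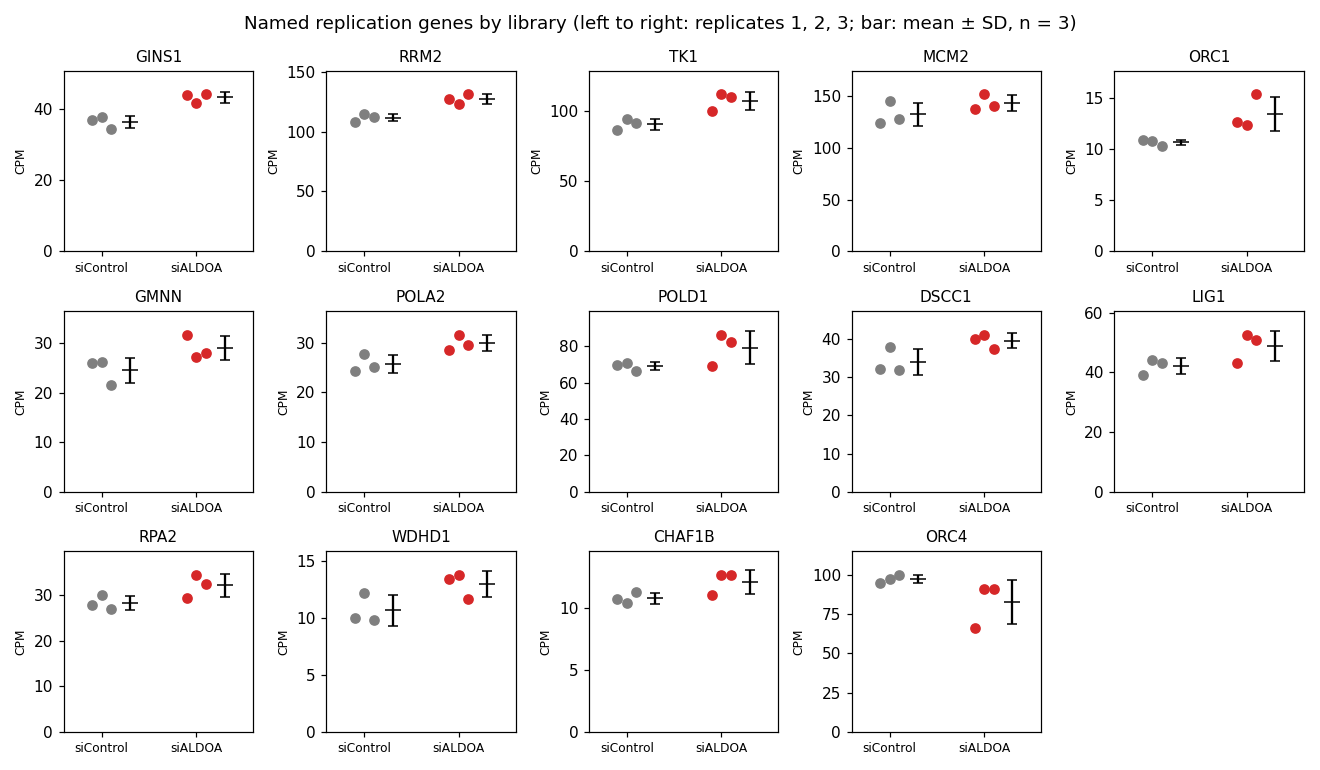
CPM of 14 replication genes in each library (points from left to right are replicates 1, 2 and 3 of siControl in grey and siALDOA in red, bars are the mean ± SD, n = 3, and each y axis starts at 0). GINS1, RRM2 and TK1 have separate groups with differences of 13.8% to 19.1%, and ORC4 is lower in siALDOA through 66.3 CPM in replicate 1.

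Compared per length of the Ensembl canonical transcript, the levels in siControl spanned a wide range, from 1.25 CPM per kb for GINS4 to 95.7 CPM per kb for PCNA. The order above GINS4 started with WDHD1 at 1.77, POLE2 at 2.39 and CHAF1B at 2.42 CPM per kb. It ended with FEN1 at 48.6, POLD2 at 56.8, TK1 at 63.5, MCM7 at 85.0 and PCNA at 95.7 CPM per kb. Of the 53 pairs of neighbours in this order, 44 overlapped over the 3 siControl libraries and were not distinct in level. Within 11 single complexes, the ratio of the highest to the lowest subunit per length ran from 1.31 for CDC7 and DBF4, 1.68 for RFC1 to RFC5 and 1.81 for RRM1 and RRM2 to 7.09 for MCM2-7 and 8.71 for GINS. It was 4.74 for polymerase delta, between POLD3 and POLD2, and 3.90 for polymerase epsilon, between POLE2 and POLE. Within ORC the ratio was 4.38 between ORC1 at 3.40 CPM per kb and ORC4 at 14.9 CPM per kb. These levels assume the canonical transcript of each gene, and other isoforms would change them.

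**Figure D4:**
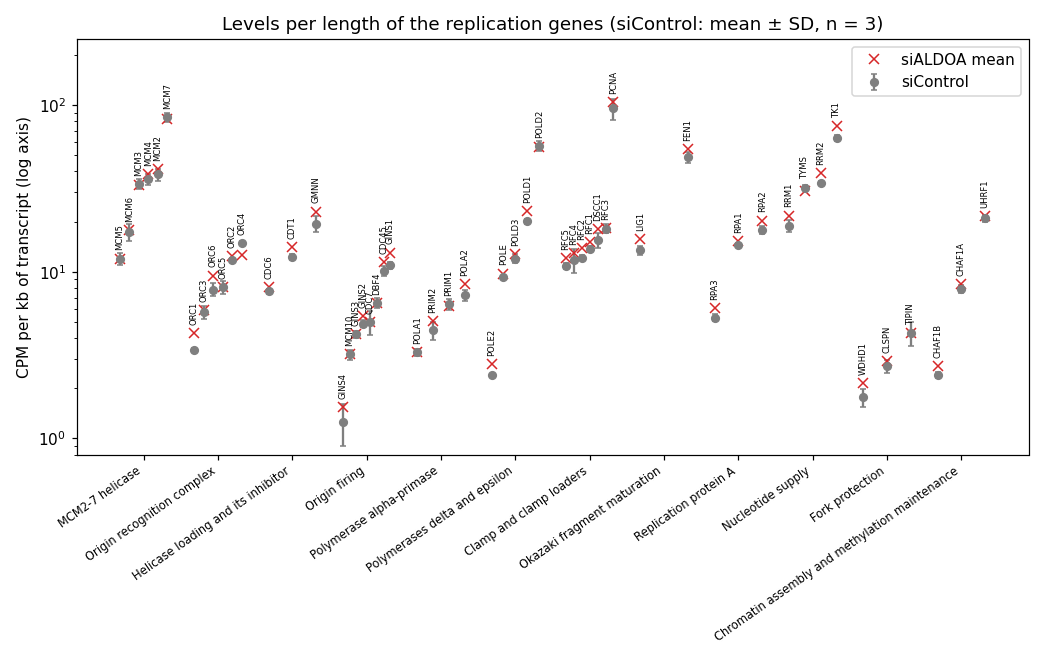
Level of the 54 genes in CPM per kb of transcript (log axis) by sub-complex, with siControl as mean ± SD (n = 3, grey) and the siALDOA mean as a red cross. Levels run from 1.25 for GINS4 to 95.7 for PCNA in siControl, and the crosses lie close to the grey points.

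Replication genes with and without an E2F word in the promoter were also set side by side, without a test. Of the 24 replication genes with a word, 21 had a log2 fold change above 0 with a median of 0.092, and of the 23 without a word 18 did, with a median of 0.17. GINS1 was the called gene with a word, and RRM2 and TK1 were the called genes without one. Of 656 other tested genes with an E2F word, 51.7% had a log2 fold change above 0, their median was 0.012, and 4.57% were called higher and 6.71% lower.

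Beyond the 54 genes, 56 further genes that act with the replication machinery were examined, of which 55 were tested and E2F2 was listed at 0 in all libraries. A log2 fold change above 0 was found for 41 of the 55 (74.5%), 9 rose (16.4%, background 4.36%) and 3 fell (5.45%, background 5.29%). Those that rose included PCLAF, a partner of PCNA (log2 fold change 0.33, SE 0.076, adjusted p = 0.00731), ATAD5, which unloads PCNA (0.43, SE 0.11, adjusted p = 0.0145), TOP2A, the topoisomerase of late S phase and mitosis (0.24, SE 0.060, adjusted p = 0.0122), and TIMELESS, the partner of TIPIN at the fork (0.25, SE 0.070, adjusted p = 0.0299). The others that rose were MTBP at 0.34 (SE 0.099, adjusted p = 0.0324), MMS22L at 0.32 (SE 0.093, adjusted p = 0.0335), RNASEH2A at 0.32 (SE 0.099, adjusted p = 0.0490), the histone chaperone ASF1B at 0.27 (SE 0.077, adjusted p = 0.0302) and GMP synthase (GMPS) at 0.21 (SE 0.062, adjusted p = 0.0325). In all 9, which the test had picked from the same values, the groups did not overlap. Among the 55 genes, 17 had every siALDOA library above every siControl library (background 13.1%). The opposite order was found in 6 (background 14.6%).

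PCLAF had 53.2, 52.6 and 51.3 CPM in siALDOA and 38.2, 46.7 and 40.0 CPM in siControl. ATAD5 had 16.35, 20.7 and 20.1 CPM in siALDOA and 14.7, 14.9 and 12.8 CPM in siControl. TIMELESS had 47.2, 52.2 and 53.4 CPM in siALDOA and 42.3, 42.1 and 44.4 CPM in siControl. These genes act at the clamp and the fork, and for ATAD5 and TIMELESS the lowest siALDOA library was replicate 1. TOP2A had 229, 203 and 208 CPM in siALDOA and 187, 173 and 180 CPM in siControl. RNASEH2A, the catalytic subunit of RNase H2, which removes RNA from DNA, had 20.4, 20.3 and 22.2 CPM in siALDOA and 17.99, 17.7 and 14.8 CPM in siControl. MTBP, a partner of the firing factor TICRR, had 17.6, 16.3 and 18.5 CPM in siALDOA and 14.1, 13.4 and 13.9 CPM in siControl. TOP2A was highest in siALDOA replicate 1, and RNASEH2A was lowest in siControl replicate 3. ASF1B had 38.9, 44.4 and 44.9 CPM in siALDOA and 37.4, 35.4 and 33.6 CPM in siControl. MMS22L, which acts in the repair of broken forks, had 21.4, 24.9 and 21.8 CPM in siALDOA and 18.2, 18.8 and 17.6 CPM in siControl. GMPS had 84.2, 78.8 and 78.4 CPM in siALDOA and 68.7, 71.9 and 67.5 CPM in siControl.

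The genes that fell were SUPT16H, a subunit of the histone chaperone FACT, TOP1, the topoisomerase that relaxes DNA ahead of the fork and in transcription, and IMPDH1, an enzyme of guanine nucleotide synthesis. SUPT16H had 77.7, 82.9 and 71.0 CPM in siALDOA and 97.6, 102.5 and 96.1 CPM in siControl, with separate groups, and fell by 0.35 on the log2 scale (SE 0.066, adjusted p = 0.00127). It was the only one of the 12 to pass in all 16 alternative analyses. TOP1 had 143, 138.5 and 137 CPM in siALDOA and 171, 163 and 162 CPM in siControl, and IMPDH1 had 55.2, 64.8 and 66.98 CPM in siALDOA and 78.25, 78.02 and 77.8 CPM in siControl. The groups of both were separate. TOP1 fell by 0.24 (SE 0.056, adjusted p = 0.00730) and IMPDH1 by 0.32 (SE 0.071, adjusted p = 0.00503), but neither passed when libraries were scaled to totals only (adjusted p = 0.199 and 0.0875). Without siControl replicate 3, none of the 55 was called higher, and without siControl replicate 2 the count was 2, where 2.35% and 2.32% of all tested genes were called higher. Leaving out siALDOA replicate 3 gave a count of 3, siALDOA replicate 2 gave 4, siControl replicate 1 gave 5 and siALDOA replicate 1 gave 6, against 3.14%, 3.03%, 3.9% and 4.12% of all tested genes. The E2F factors and their partners TFDP1 and TFDP2 made up 9 tested genes, and none was called. Of these 9 genes, 6 had log2 fold changes above 0 and the median was 0.022, with E2F1 at 0.016.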

How the data were processed

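RNA of HT29 cells was sequenced by the authors as paired-end reads, aligned to hg38 with TopHat2 and counted per gene symbol with gfold. The deposited values are counts as whole numbers, without normalization. The annotation, the strand setting and the treatment of reads with several matches are not given in the sources used here, so genes that share exons or near-identical copies are uncertain. Of the 54 genes, 9 share exonic bases with another protein-coding gene in GENCODE 44. Depth was 27277538 to 33237914 counts per library. The labels call the replicates biological without naming cultures, so p-values measure the spread between these libraries.

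Counts were tested in R 4.3.3 with edgeR 4.0.16 (filterByExpr, TMM factors, quasi-likelihood F-test, no covariate) on all 6 libraries, with Benjamini-Hochberg adjustment over 15307 tested genes and a threshold of 0.05. SE is the log2 fold change divided by the root of F. CPM used the TMM factors, and log2 CPM a prior count of 2. CPM per kb used the Ensembl canonical transcript. Promoters came from the RefSeq table and motifs were searched with python 3.11.15, pandas 2.3.3 and numpy 2.4.6. Figures were drawn with matplotlib 3.10.9. The test was checked on simulated data, where the smallest changes were 0.25 on the log2 scale. That is above the median absolute log2 fold change of the 54 genes, 0.13, and smaller changes were not simulated. The test missed most of these smallest changes and some large changes in genes with low counts. It fell short of the recovery first required over all genes, after which the requirement was limited to genes of at least 5 CPM.

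The 54 genes, their sub-complexes and the other lists were chosen with earlier results of these data known, so no test was made over a list. Genes with full values were those with an adjusted p under 0.05, the smallest p in each sub-complex and both ends of the log2 fold change, besides ALDOA. PCNA, and the RRM2 site nearest to the start, were chosen after their values were seen. The 16 alternatives were limma-voom (limma 3.58.1), DESeq2 1.42.0, edgeR's likelihood ratio test, library totals only, upper quartile normalization, leaving out ribosomal RNA genes, a minimum of 10 counts in each library, the table unfiltered for low counts, thinning to the smallest total, a replicate block and each of 6 libraries left out.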

Additional observations from a re-analysis of the deposited data

How the results depend on the processing

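The median log2 fold change of the 54 genes stayed above 0 in all 16 alternatives. It was 0.19 with library totals only, where the median of all tested genes was 0.075, and 0.094 to 0.15 with 1 library left out. The number of the 54 called higher was 3 with all libraries, 7 with library totals only and 0 to 5 with 1 library left out. The number called lower was 0, and 1 (ORC4) with no filter on low counts. Of the 55 further genes, 9 were called higher, and 0 to 6 with 1 library left out, while 3 were called lower and 1 with library totals only. Of all tested genes, 668 were called higher and 810 lower. With library totals only, 279 were lower, and with 1 library left out 359 to 644 were higher and 471 to 790 lower. The median of all tested genes, 0.0016, turned to -0.00031 without siALDOA replicate 1 and to -0.00051 without siALDOA replicate 2, and reached 0.0037 without siControl replicate 3. With 1 library left out fewer samples entered, and the cause of the other shifts was not tested. With replicate number as a block, 9 of the 54 were called higher and 1 lower, where 987 (6.45%) and 1175 (7.68%) of all tested genes were. Those higher were GMNN, GINS1, POLD1, DSCC1, FEN1, LIG1, RRM1, RRM2 and TK1, and the lower one was ORC4. Libraries with the same number correlated by 0.0262 to 0.0348 in their deviations from the group means, so the numbers were not treated as pairs, although each library correlated best with its own number. Genes near 5 CPM, such as GINS4 and POLE2, had SEs of 0.20 and 0.18, which limits what could be detected for them.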

Other observations

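Among the 56 further genes, POLE4, a small subunit of polymerase epsilon, had a log2 fold change of -0.39 (edgeR adjusted p = 0.0868) and passed in 3 of the 16 alternatives, while MCM8, a helicase of homologous recombination, was at 0.25 (adjusted p = 0.0691) and passed in 4. E2F5, at 0.27 (adjusted p = 0.0696), also passed in 4, and HELLS, a chromatin remodeller, was at 0.28 (adjusted p = 0.160) and passed in 2. These genes were chosen after their values were seen.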
